A study of Mus musculus and Homo sapiens with 9 samples.

Results

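The 10 genes described here encode transcription factors of the immediate-early response and their closest relatives: FOS, FOSB, FOSL1, FOSL2, JUN, JUNB, JUND, MYC, EGR1 and ATF3. They were chosen by name, and all peaks over each gene body plus 1 kb on either side were taken from 9 lists of CUT&Tag peaks, with 5 lists of mouse embryonic fibroblasts (MEFs) and 4 lists of the human embryonic kidney line HEK293. The rule found 49 peaks of 102544, 32 in MEFs and 17 in HEK293 cells, and all 10 genes were present in both genome annotations. CUT&Tag tethers a transposase to a bound antibody, so that DNA around the target is cut, tagged and sequenced. S9.6, an antibody to RNA-DNA hybrids, served to map R-loops, in which an RNA pairs with a DNA strand and displaces the other.

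Each group held 1 library, so no p-value could be computed, and a difference between lists compares these libraries and not the conditions. Intervals cover counting error only. The MEFs came from embryo trunks of a C57BL/6J × ICR mixed background and had been immortalised with the lentivirus SV40gp6 and selected with puromycin. S9.6 was used in Mcm8 wildtype (WT), Mcm8 knockout (KO), shControl and shDdx5 MEFs, the last with an adenovirus against Ddx5, and a further library of wildtype MEFs was made without primary antibody. All HEK293 cells were wildtype in genotype. Antibodies there were mouse IgG, anti-FLAG in cells given a FLAG-MCM8 plasmid, S9.6 in cells with no plasmid named, and S9.6 in cells given a plasmid that the labels call RNH1 and the study describes as RNase H1. The labels name no serum starvation or stimulation step in any group, and expression of the genes was not analysed here. MEF and HEK293 peaks passed different calling thresholds, so values are not compared between the species.

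FOS and JUN proteins pair through leucine zippers to form AP-1, which binds short palindromes in promoters and enhancers. FOSB, FOSL1 and FOSL2 are the other FOS proteins, JUNB and JUND the other JUN proteins, and ATF3 is a stress-induced partner that often represses. EGR1 is a zinc finger factor and MYC a regulator of growth and proliferation. Many of these genes are switched on within minutes of a signal such as serum, from promoters that hold paused RNA polymerase, and most of them are short and GC-rich. JUND differs from the others in being expressed steadily in many cells.

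The sequences below were chosen from genes with a peak in every S9.6 list of their species, to show the sequence near those peaks: the promoters of Jun (mouse), JUN, JUND, and Fosl2 (mouse) and FOSL2, and the region around the S9.6 summit upstream of EGR1. Peak limits are not marked, and some summits lay downstream of the TSS, outside the printed sequence. They were read from the mm10 and hg38 genomes and are written 5′ to 3′ on the strand of the gene. Capitals mark a match to the CRE-like motif TGACNTCA on either strand, in which N is any base, and sequences without capitals held no match.
Jun, mm10 chr4:95052223-95052522, minus strand, directly upstream of the TSS: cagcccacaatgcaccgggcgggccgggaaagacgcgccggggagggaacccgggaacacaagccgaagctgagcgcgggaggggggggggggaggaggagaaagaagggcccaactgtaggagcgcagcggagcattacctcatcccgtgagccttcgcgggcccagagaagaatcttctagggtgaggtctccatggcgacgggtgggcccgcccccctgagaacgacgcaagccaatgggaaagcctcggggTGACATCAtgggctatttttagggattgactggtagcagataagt
JUN, hg38 chr1:58784048-58784347, minus strand, directly upstream of the TSS: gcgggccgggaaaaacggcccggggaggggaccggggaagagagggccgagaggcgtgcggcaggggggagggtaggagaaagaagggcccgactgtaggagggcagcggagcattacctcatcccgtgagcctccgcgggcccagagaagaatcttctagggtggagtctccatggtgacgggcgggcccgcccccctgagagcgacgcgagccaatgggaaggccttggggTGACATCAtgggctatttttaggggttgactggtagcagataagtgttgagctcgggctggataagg
JUND, hg38 chr19:18281623-18281922, minus strand, directly upstream of the TSS: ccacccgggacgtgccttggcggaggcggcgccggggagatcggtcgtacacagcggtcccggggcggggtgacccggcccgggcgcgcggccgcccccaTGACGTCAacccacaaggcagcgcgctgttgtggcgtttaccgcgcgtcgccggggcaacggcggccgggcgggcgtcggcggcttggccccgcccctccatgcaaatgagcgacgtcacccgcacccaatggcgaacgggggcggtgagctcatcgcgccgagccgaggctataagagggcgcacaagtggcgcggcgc
Fosl2, mm10 chr5:32135501-32135800, plus strand, directly upstream of the TSS: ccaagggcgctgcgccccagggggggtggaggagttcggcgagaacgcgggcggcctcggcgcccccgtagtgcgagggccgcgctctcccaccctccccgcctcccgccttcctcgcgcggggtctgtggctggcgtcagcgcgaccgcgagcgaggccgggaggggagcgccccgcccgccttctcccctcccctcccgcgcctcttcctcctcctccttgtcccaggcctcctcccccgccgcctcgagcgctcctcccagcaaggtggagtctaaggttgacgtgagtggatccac
FOSL2, hg38 chr2:28392502-28392801, plus strand, directly upstream of the TSS nearest to the summit: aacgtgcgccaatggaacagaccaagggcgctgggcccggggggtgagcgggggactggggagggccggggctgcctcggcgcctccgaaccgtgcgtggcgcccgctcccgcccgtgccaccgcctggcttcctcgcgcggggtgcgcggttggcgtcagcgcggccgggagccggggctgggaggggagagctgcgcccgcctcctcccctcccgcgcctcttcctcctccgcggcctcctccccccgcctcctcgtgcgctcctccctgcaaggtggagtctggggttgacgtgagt
EGR1, hg38 chr5:138464478-138464777, plus strand, around the S9.6 summit: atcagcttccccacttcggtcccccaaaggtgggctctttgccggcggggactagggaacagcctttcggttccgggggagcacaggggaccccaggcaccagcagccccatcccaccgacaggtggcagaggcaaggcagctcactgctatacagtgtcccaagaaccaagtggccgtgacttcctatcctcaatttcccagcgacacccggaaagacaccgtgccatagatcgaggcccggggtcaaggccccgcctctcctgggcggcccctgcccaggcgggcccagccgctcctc

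The CRE-like match TGACATCA stood at -45 to -38 from the TSS of Jun in mouse and at -67 to -60 in human JUN. In the JUND promoter the match was TGACGTCA, at -200 to -193 in human and -214 to -207 in mouse. Of 300 bp upstream of each reference TSS, 7.98% of 21851 mouse and 7.42% of 19061 human protein-coding promoters held this motif, as did 2 of the 10 genes in each species, Jun and Jund. Peaks covered the match in 4 of 5 mouse Jun peaks, 4 of 4 mouse Jund peaks, 3 of 4 human JUN peaks and 2 of 2 human JUND peaks. Summits of the covering peaks lay 20 to 120 bp from the centre of the match in mouse Jun, 6 to 272 bp in human JUN, 168 to 174 bp in mouse Jund and 26 bp in human JUND. A match is a description of the sequence and not a site shown to be bound. The CArG box, a serum response element, has the form CC, 6 bases of A or T, GG. In the same 300 bp windows it occurred in 1.54% of mouse and 1.39% of human promoters. It was found in Fosb of both species and in 2 copies in human EGR1, and no window of the 10 genes held both motifs. The mouse Egr1 window lay upstream of 34859823, so sequence next to a further Egr1 TSS at 34861207 was not scanned. Boxes farther than 300 bp upstream were not scanned in any gene. The CArG boxes of FOSB and Fosb were covered by 0 peaks, and those of EGR1 by the S9.6 peak but by neither RNH1 peak. The S9.6 summit lay 750 and 772 bp from these boxes, in a peak 1171 bp wide. The upstream RNH1 summit lay 748 and 770 bp away, in a peak 622 bp wide.

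The promoters were GC-rich. GC content of the 300 bp upstream of the TSS ranged from 48.7% to 75% in mouse (median 63.8%) beside a median of 54.0% over all promoters, and 8 of 10 genes were above it. In human it ranged from 64.3% to 75% (median 67.2%) beside 62.0%, with 10 of 10 above. GC skew, the excess of G over C divided by their sum, was measured in the first 300 bp downstream. It was above the median of all promoters in 5 of 10 genes in each species, and ran from -0.215 in Fos to 0.247 in Fosl2 in mouse and from -0.238 in EGR1 to 0.176 in FOSL2 in human.

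The lists held 4314 to 12259 peaks in MEFs and 12497 to 17178 in HEK293 cells. Read totals were not used here, and relative depth was recovered from the fold and p of each peak. It came to 5729 to 7001 fragments per Mb in the S9.6 lists of MEFs but 719.8 in the no-antibody list, and to 8314 to 11049.9 in HEK293 cells. Of 8 fibroblast genes (Col1a1, Col1a2, Col3a1, Fn1, Vim, Thy1, Pdgfra and Pdgfrb), 3 had a peak in WT and in KO, 2 in shControl and in shDdx5 and 0 with no antibody, but peak lists measure no expression.

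In the S9.6 lists of MEFs, 5 to 8 of the 10 genes carried a peak. A peak lay over 5 genes in WT, where 19.2% of all protein-coding genes had one, over 8 in KO (26.1%), over 7 in shControl (27.8%) and over 8 in shDdx5 (32.7%). In HEK293 cells 6 genes had a peak with S9.6 (43.6% of all genes) and 6 in the list labelled RNH1 (37.0%), while FLAG-MCM8 had peaks over 3, close to its background of 28.4%. With mouse IgG 0 of 10 genes had a peak, beside 26.5% of all genes, and with no antibody 0 of 10, beside 7.99%, in a list of far lower depth.

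Long genes offer more room for a peak, and 8 of the 10 genes are shorter than 10 kb in both species. Restricted to genes of 10 kb or shorter, a background chosen after seeing the data, 4 of 8 had a peak in WT (7.65% of all such genes), 7 in KO (11.0%), 5 in shControl (11.6%) and 6 in shDdx5 (16.7%). In HEK293 cells 5 of 8 had a peak with S9.6 (24.7%), 5 in the RNH1 list (20.6%) and 2 with FLAG-MCM8 (11.7%). No peak was found over these 8 genes with IgG (6.53%) or no antibody (1.48%).

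**Figure D1:**
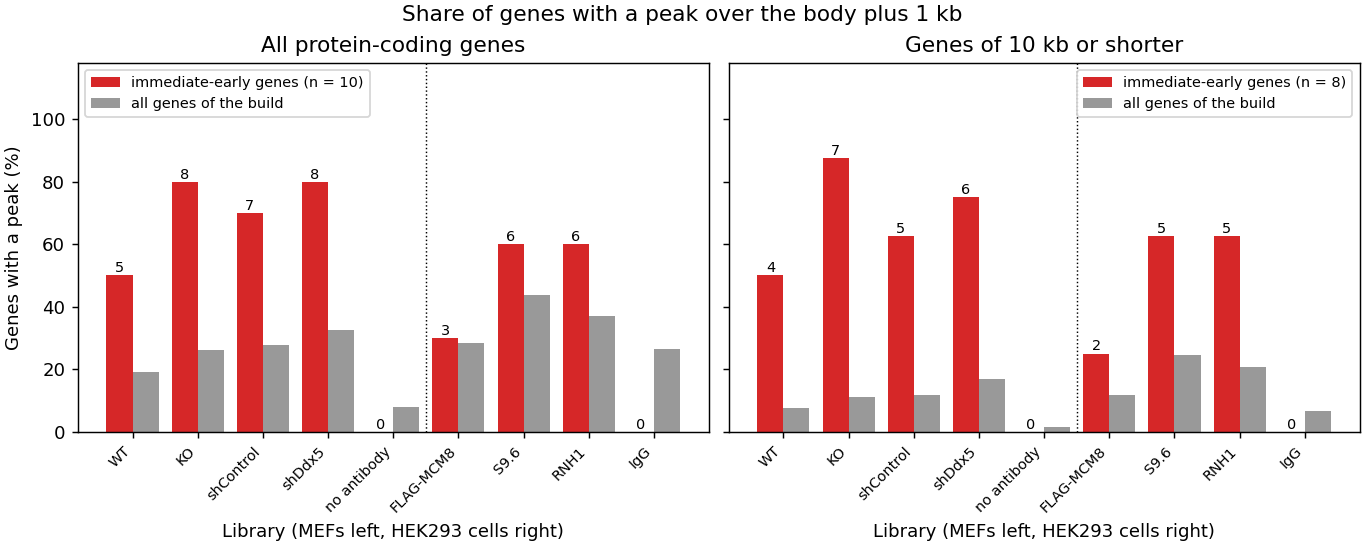
Share of genes with a peak over the body plus 1 kb in each of the 9 libraries, in percent, for the immediate-early genes (red, with their number above the bar) and for all protein-coding genes of the build (grey), with genes of any length on the left and genes of 10 kb or shorter on the right. In the 4 S9.6 libraries of MEFs 5 to 8 of 10 genes had a peak, and the no antibody and IgG bars are at 0.

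The genes differed in how regularly they carried a peak. JUN and FOSL2 had a peak in 7 of the 9 lists, missing only with no antibody and with IgG. JUND and EGR1 had one in 6 lists, all of them S9.6 lists. FOS had a peak in 4 lists, MYC, FOSB and FOSL1 in 3, and ATF3 and JUNB in 2. Jun, Fosl2, Jund and Egr1 were thus the 4 genes with a peak in all 4 S9.6 lists of MEFs, a pattern that 7.46% of mouse genes showed. The same 4 also had a peak with S9.6 and with RNH1 in HEK293 cells, as did 5.84% of the 15713 genes with the same symbol in both builds. Without a peak in either control list as well, this share was 2.49%.

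**Figure D2:**
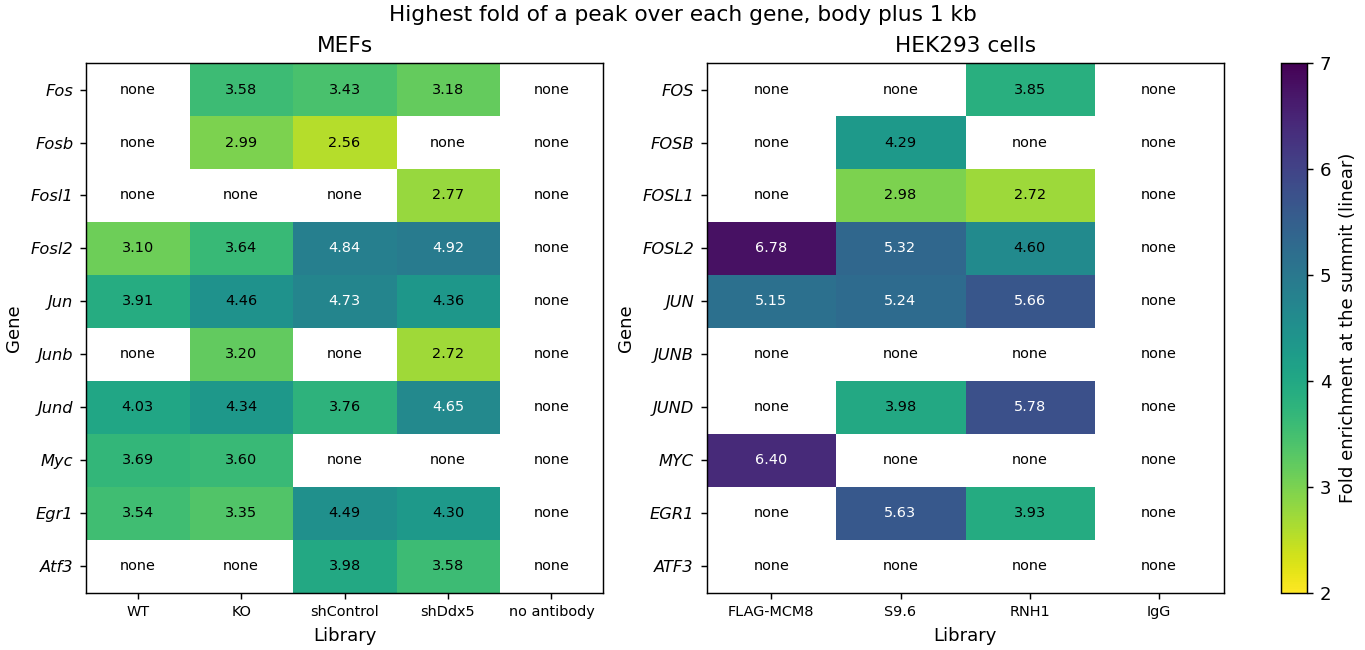
Highest fold enrichment at the summit of a peak over each of the 10 genes (rows) in each library (columns), MEFs on the left and HEK293 cells on the right, with "none" where no peak lay within 1 kb of the gene. Jun and Fosl2 are filled in every S9.6 and FLAG-MCM8 column, and the no antibody and IgG columns are empty.

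Fold is the summit pileup divided by the background MACS2 expects there, with 1 added to both. Jun, on mm10 chromosome 4 (95049034 to 95052222, minus strand), had a promoter peak of fold 3.91 (WT), 4.46 (KO), 4.73 (shControl library) and 4.36 (shDdx5 library). The 4 summits lay at 31, -61, -161 and -162 bp from the TSS, the WT summit in the 5′ UTR of exon 1 and the others upstream. All 4 peaks also covered the start of Junos, an antisense non-coding gene, and since the reads carry no strand the RNA behind a peak cannot be assigned to either. A further shControl peak lay over the coding part of Jun exon 1, 1536 bp from the TSS, with a fold of 2.70 and a rank of 11001 among 12259 peaks.

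Human JUN (hg38 chromosome 1, 58776845 to 58784048, minus strand) had a promoter peak in 3 libraries. The fold was 5.15 with FLAG-MCM8, 5.24 with S9.6 and 5.66 in the RNH1 list, and summits stood at -334, -68 and -142 bp. The FLAG-MCM8 peak was the widest of these, at 855 bp beside 244 and 306 bp. With S9.6 a further peak at -1158 bp, fold 4.07, lay over the divergent non-coding gene LINC01135 and overlapped no RNH1 or FLAG-MCM8 peak, although the FLAG-MCM8 promoter peak also reached LINC01135. Likeness to JUN was measured over the 7 lists as the mean absolute difference in log2 fold of the strongest peak. Of 15713 genes, 200 had peaks in exactly these lists, and the closest were TOB1 at 0.105, UBE2D3 at 0.115 and VDAC2 at 0.123, so the pattern of JUN was not particular to it.

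JUND gave the most constant position. In MEFs its summits stood at -42 bp for WT, -36 for KO, -40 for shControl and -42 for shDdx5, with folds of 4.03, 4.34, 3.76 and 4.65. In HEK293 cells the summit was at -170 bp from the human TSS both with S9.6 and in the RNH1 list. The fold there was 3.98 with S9.6, where the peak ranked 6492 of 15147, and 5.78 with RNH1, where it ranked 453 of 12497. FLAG-MCM8 had no peak over JUND. Mouse Jund spans 70698949 to 70700616 on chromosome 8 and human JUND 18279694 to 18281622 on chromosome 19.

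JUNB, the remaining JUN protein, had no peak in any HEK293 list and none in WT, shControl or no antibody. Mouse Junb (chromosome 8, 84974484 to 84978718, minus strand) had a KO peak at -1150 bp from the TSS, fold 3.20, and a shDdx5 peak inside the gene, 2353 bp downstream of its start, fold 2.72. The latter lay in an exon of a non-coding Junb transcript, 177 bp from its start. These peaks did not overlap.

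Of the FOS genes, FOSL2 was the most regular. Mouse Fosl2 (chromosome 5, 32135801 to 32157842) had folds of 3.10 and 3.64 for WT and KO and of 4.84 and 4.92 for shControl and shDdx5, and the summits lay at 32, -230, -23 and -20 bp from the TSS. In the shControl and shDdx5 lists these peaks were among the strongest 5% (ranks 290 of 12259 and 474 of 11768), while in WT the peak ranked 3044 of 6481. Human FOSL2 (chromosome 2, 28392448 to 28417317) had a fold of 6.78 with FLAG-MCM8, 5.32 with S9.6 and 4.599 in the RNH1 list. Its summits stood at 13, -17 and 18 bp from a TSS at 28392802, and the FLAG-MCM8 and RNH1 peaks had the same start and end, 28392521 and 28392821. The antisense non-coding gene FOSL2-AS1 overlaps this site.

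Mouse Fos (chromosome 12, 85473890 to 85477273) had no peak in WT. Peaks upstream of its TSS were present in KO at -338 bp (fold 3.58), in shControl at -102 bp (fold 3.43) and in shDdx5 at -17 bp (fold 3.18), and each overlapped the others. The nearest WT peak was 18.4 kb from the gene. In HEK293 cells FOS had a single peak, in the RNH1 list, at -964 bp and fold 3.85, and an S9.6 peak lay 1.40 kb from the gene, outside the window used.

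All FOSB and FOSL1 peaks lay inside the genes. Mouse Fosb had a KO peak over coding exon 2, 2404 bp from the nearest TSS (fold 2.99), and a shControl peak 1403 bp from it (fold 2.56), which did not overlap. Neither reached a q of 0.05, with −log10 q of 0.80 and 0.28. Human FOSB had 1 peak, with S9.6, 83 bp from an internal TSS and fold 4.29, which also lies inside ERCC1, a protein-coding DNA repair gene on the opposite strand. Mouse Fosl1 had a peak in shDdx5 alone, 2490 bp from the nearest TSS, with fold 2.77 and a −log10 q of 0.96. In HEK293 cells FOSL1 had overlapping peaks with S9.6 (fold 2.98) and RNH1 (fold 2.72), 3497 and 3850 bp from the TSS and ranked 11474 of 15147 and 11190 of 12497.

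**Figure D3:**
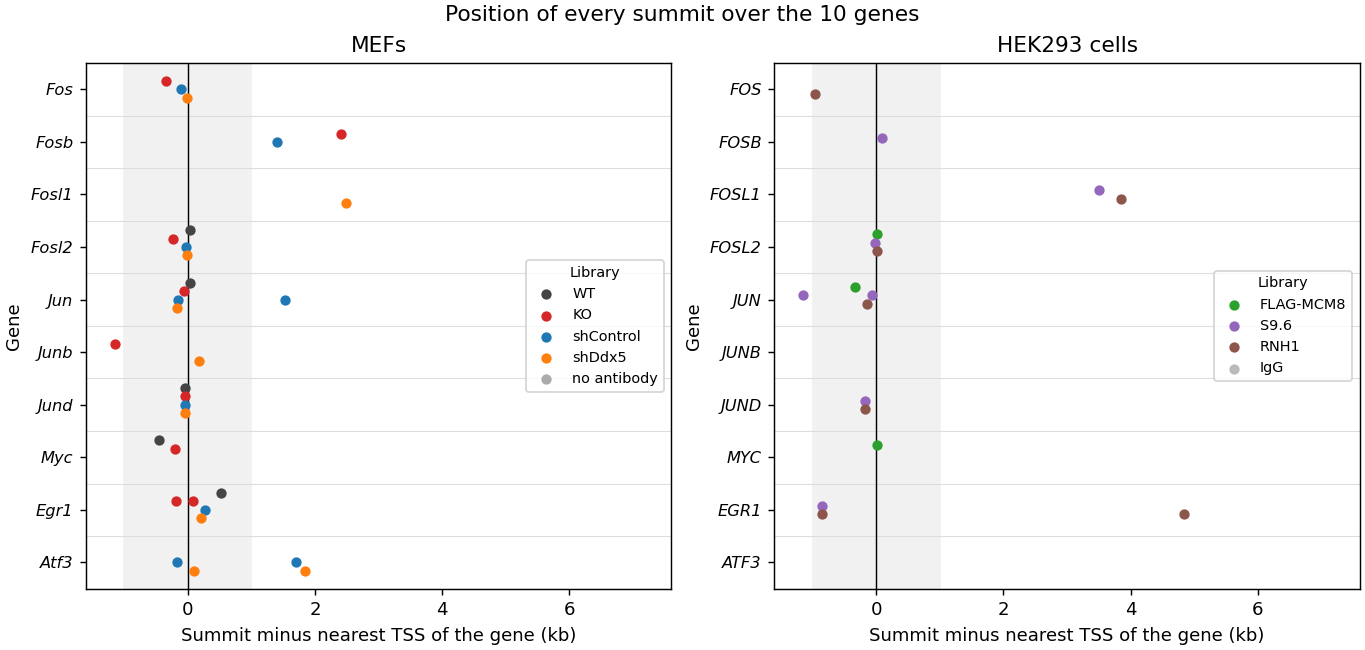
Distance in kb of every summit from the nearest TSS of its own gene, measured in the direction of transcription, for the 10 genes (rows) and each library (colour), with 1 kb on either side shaded. Jund and Fosl2 summits gather at the TSS, while those of Fosb and Fosl1 in MEFs lie 1.40 to 2.49 kb downstream.

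EGR1 carried the strongest peak of the set by p. In HEK293 cells (chromosome 5, 138465479 to 138469303) the S9.6 peak had a fold of 5.63, a −log10 p of 26.1 and a summit pileup of 57 fragments (95% Poisson interval 43.2 to 73.9), and ranked 352 of 15147. Its summit stood at -851 bp, over a non-coding gene on the opposite strand (ENSG00000289267), and the RNH1 summit at -849 bp, with a fold of 3.93 and a pileup of 47 (34.5 to 62.5). The S9.6 peak was 1171 bp wide and the RNH1 peak 622 bp. A further RNH1 peak, fold 3.02, lay 4839 bp from the TSS, beyond the gene end.

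Mouse Egr1 lies on chromosome 18 (34859823 to 34864984). Measured from the gene start, its summits stood at 530 bp in WT, 277 in shControl and 208 in shDdx5. In KO a pair of peaks stood at 84 and 1191 bp. These places are in the 5′ UTR of the transcript that begins at the gene start. A further Egr1 TSS is annotated at 34861207, and all these summits lay upstream of it, the second KO summit at -193 bp. Whether they are called 5′ UTR or upstream thus depends on the TSS taken. Folds were 3.54 for WT, 3.353 and 2.941 for the KO pair, and 4.49 and 4.30 for shControl and shDdx5. The shControl peak ranked 100 of 12259 and was the highest placed peak of the set in any list.

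Myc and Atf3 had peaks in different MEF lists, and the share of all genes with either pattern was not counted. Over all protein-coding genes 25.1% of WT peaks overlapped a shControl peak, and 14.8% of shControl peaks a WT peak. Mouse Myc (chromosome 15, 61985391 to 61990374) had a peak upstream of its TSS in WT (-450 bp, fold 3.69) and KO (-198 bp, fold 3.60), and the nearest peaks in shControl and shDdx5 were 39.3 and 47.6 kb away. Mouse Atf3 (chromosome 1, 191170296 to 191218039, minus strand) had none in WT and KO, where the nearest peaks were 43.92 and 44.05 kb away. In shControl and shDdx5 it had a pair of peaks each. The first stood at -173 and 92 bp from the TSS of the reference transcript, which lies inside the annotated gene (folds 3.98 and 3.58). The other lay in the first intron of the long transcript, 1700 and 1839 bp from its start (folds 3.73 and 3.41). The labels do not say how the WT and shControl cultures differ, and the part of culture or virus in this pattern was not tested.

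In HEK293 cells ATF3 had no peak in any list, and MYC had 1, with FLAG-MCM8. This peak covered the start of MYC, 15 bp from the TSS at 127735434 on chromosome 8, with a fold of 6.40 and a pileup of 17 (9.90 to 27.2). It lay also over CASC11, a non-coding gene on the opposite strand. The nearest S9.6 and RNH1 peaks were 66.9 and 51.3 kb away.

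Across the set, 38 of 49 summits lay within 1 kb of a TSS of their own gene, 25 of 32 in MEFs and 13 of 17 in HEK293 cells. Of all peaks over protein-coding genes, 49.1% (WT), 48.5% (KO), 39.2% (shControl) and 56.5% (shDdx5) lay that close to any TSS, and the corresponding counts for the set were 5 of 5, 7 of 9, 6 of 9 and 7 of 9. In HEK293 cells these shares were 31.8% with FLAG-MCM8, 54.8% with S9.6 and 54.0% in the RNH1 list, beside 3 of 3, 5 of 7 and 5 of 7 for the set. The share for all peaks counts a TSS of any gene and was not matched on gene length. Summits in MEFs were upstream in 16 of 32 cases, in a 5′ UTR in 8, in an exon of a non-coding transcript in 3, in an intron in 3 and over coding sequence in 2. In HEK293 cells 9 of 17 were upstream, 3 coding, 2 in a 5′ UTR, 2 in an intron and 1 downstream. A 5′ UTR summit could lie upstream of a further TSS of its gene, as in Egr1.

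GC content of 300 bp around the summits was above the list's median for peaks over protein-coding genes in 4 of 5 WT peaks, 9 of 9 KO, 9 of 9 shControl and 7 of 9 shDdx5 peaks of the set. The medians of the set were 58.7%, 62.0%, 63.7% and 63.7% beside 54.3%, 54.0%, 52.0% and 56.0%. In HEK293 cells 4 of 7 S9.6 and 4 of 7 RNH1 peaks were above the median of 60.3%. In WT 4 of 5 peaks of the set had a q of at most 0.05, as had 7 of 9 in KO, 5 of 9 in shControl and 6 of 9 in shDdx5, where 32.7%, 36.1%, 28.1% and 60.5% of all peaks of these lists did.

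The KO and WT lists address whether loss of MCM8, a helicase, changes R-loops. Jun, Fosl2, Jund, Myc and Egr1 had a peak in both lists (11.8% of all genes). Fos, Fosb and Junb had a peak in KO and none in WT, as did 14.3% of all genes, and 0 of 10 had a peak in WT and none in KO, beside 7.43%. All 5 WT peaks overlapped a KO peak, and 6 of 9 KO peaks overlapped a WT peak, beside 29.02% and 20.02% of peaks over all protein-coding genes. Peaks of the set were wider, with medians of 612 bp in WT and 555 bp in KO beside 328 and 322 bp over the whole lists. Here and in the comparisons below, the overlap over all protein-coding genes was not matched on width, strength or position. The KO list was larger than the WT list, with 9605 peaks beside 6481, and its recovered depth was lower, at 5729 beside 6490 fragments per Mb. The part of list size in the 3 genes was not tested.

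The summit pileups of the 5 shared genes were compared after division by the lowest background of their list. KO over WT was 1.42 for Fosl2 (17 and 14 fragments, 95% interval 0.658 to 3.11), 1.33 for Jun (16 and 14, 0.610 to 2.95) and 1.23 for Jund (21 and 20, 0.632 to 2.38). It was 1.17 for Myc (12 and 12, 0.480 to 2.84) and 1.00 for Egr1 (18 and 21, 0.503 to 1.97). All 5 intervals included 1, and the median of 1.23 stood beside 1.17 over 1354 shared peaks at protein-coding genes. Myc, with equal pileups, stood at the same 1.17, so the value over all shared peaks is what the division alone gives. Undivided, the ratio was 1.05 for Jund and 0.857 for Egr1, and the median log2 ratio of the 5 genes was 0.0704 beside 0.294 divided. A difference at these promoters was not detectable at this depth.

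The shDdx5 and shControl lists ask the same of DDX5, an RNA helicase. Jun, Fosl2, Jund, Fos, Egr1 and Atf3 had a peak in both (17.5% of all genes). Junb and Fosl1 had one in shDdx5 and none in shControl (15.1% of all genes), and Fosb one in shControl and none in shDdx5 (10.2%). Of the 9 peaks of each list 7 overlapped a peak of the other, beside 23.3% of shDdx5 and 25.2% of shControl peaks over all protein-coding genes. The ratio of shDdx5 to shControl pileup was highest for Jund, at 1.47 (29 and 17 fragments, 0.784 to 2.86), and lowest for Atf3, at 0.803 (13 and 14, 0.347 to 1.84). Fos stood at 1.18, Fosl2 at 1.22, Jun at 1.27 and Egr1 at 1.11. All 6 intervals included 1, and the median was 1.1996 beside 1.15 over 1998 shared peaks.

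FLAG-MCM8 was mapped to find where MCM8 meets R-loops. Of its 3 peaks over the set, those at JUN and FOSL2 overlapped an S9.6 peak and an RNH1 peak, and that at MYC overlapped neither. These 2 genes of 10 had a peak in FLAG-MCM8 and S9.6 beside 18.5% of all genes, and in FLAG-MCM8, S9.6 and RNH1 beside 13.9%, so the count lay near the background. Over all protein-coding genes 17.5% of FLAG-MCM8 peaks overlapped an S9.6 peak. None of the 3 overlapped an IgG peak, as 4.86% did over all protein-coding genes.

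RNase H1 degrades the RNA of a hybrid, and the RNH1 list serves as the control for the specificity of S9.6. JUN, FOSL2, EGR1, FOSL1 and JUND had a peak in both lists (27.7% of all genes), FOSB one with S9.6 alone (15.9%) and FOS one in the RNH1 list alone (9.36%). In each list 5 of 7 peaks overlapped a peak of the other, beside 32.4% of S9.6 and 39.3% of RNH1 peaks over all protein-coding genes. RNH1 over S9.6 pileup was 0.758 for EGR1 (47 and 57 fragments, 0.504 to 1.14), 0.805 for FOSL2 (28 and 32, 0.467 to 1.38) and 0.954 for FOSL1 (28 and 27, 0.542 to 1.68). JUN stood at 0.975 (35 and 33, 0.589 to 1.62). JUND had 43 fragments in RNH1 and 24 with S9.6, a ratio of 1.65 (0.978 to 2.84). This ratio exceeded 99.2% of 3532 shared peaks at protein-coding genes, although its interval included 1. Before division the counts of FOSL1 and JUN were also higher in RNH1 than with S9.6. The median of the 5 was 0.954 beside 0.920 over all shared peaks. Its side of 1 depends on the division: the median log2 ratio of the 5 was -0.0683 divided and 0.0525 undivided.

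**Figure D4:**
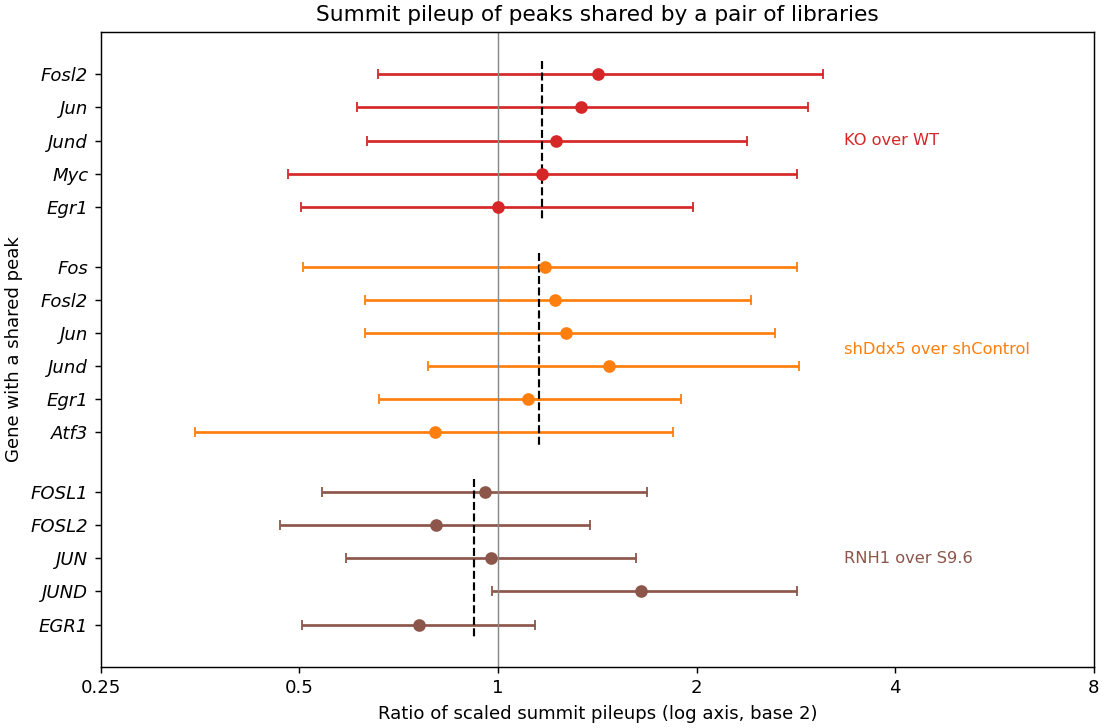
Ratio of summit pileups, each divided by the lowest background of its list, for the genes with a shared peak in KO and WT (red), shDdx5 and shControl (orange) and RNH1 and S9.6 (brown), on a log axis, with 95% Clopper-Pearson intervals as bars and the median over all shared peaks at protein-coding genes as dashed lines. Every interval includes 1, and JUND in RNH1 over S9.6 stands farthest to the right at 1.65.

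A list of 47 other genes, among them further EGR, KLF, DUSP, NR4A and ATF genes and the regulators SRF and ELK, was counted in the same way. It mixed early-response genes with related factors such as ATF2, ATF7, MAX, SRF and ELK1. Its shares therefore do not describe early-response genes alone. In MEFs 15 of 47 had a peak in WT (31.9%, 95% Wilson interval 20.4 to 46.2), 20 in KO (42.6%, 29.5 to 56.7), 20 in shControl and 31 in shDdx5 (65.96%, 51.7 to 77.8), and 0 with no antibody (interval up to 7.56%). Each S9.6 share was 1.53 to 2.02 times that of all genes. In HEK293 cells 13 had a peak with FLAG-MCM8, 24 with S9.6 (51.1%, 37.2 to 64.7), 18 with RNH1 and 9 with IgG, which is 0.973, 1.17, 1.03 and 0.722 times the share of all genes. Their intervals include the background.

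The strongest peaks of this list by p recurred between libraries. ATF7, a CREB-like partner of AP-1 proteins, was among the top 3 in 6 lists, with a fold of 5.23 in WT, 4.83 in KO, 7.997 in shDdx5, 6.76 with FLAG-MCM8, 10.48 with S9.6 and 8.11 in the RNH1 list. Trib1, a pseudokinase gene, was among the top 3 in all 4 S9.6 lists of MEFs, with folds of 4.28, 4.34, 4.33 and 5.23 in WT, KO, shControl and shDdx5. Klf2, a zinc finger factor, reached 4.84 in shControl and 7.71 in shDdx5. With IgG the strongest were CCN1 (5.70), ELK1 (4.46) and BTG2 (4.89), and ELK1 was also among the top 3 of the RNH1 list (5.34).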

How the data were processed

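Peak lists of 9 CUT&Tag libraries were analysed, 1 per group as labelled. The authors trimmed adapters and poor reads, aligned MEF reads to mm10 and HEK293 reads to hg38 with bowtie2 and called peaks with MACS2 per library, not taking the no-antibody MEF library for input. The submitters' processing notes give MACS2 2.1.2 while the methods of the study name a later version. Whether IgG served as input is not given in the sources used here. The study names a minimum fold of 2 and a p limit for HEK293 peaks. On the deposited fold, 4 of 15147 S9.6 and 5 of 12497 RNH1 peaks fell below this limit, down to folds of 1.79 and 1.72. The FLAG-MCM8 and IgG lists held 0 such peaks. For each peak the authors deposited a fold enrichment (a ratio), the −log10 of its Poisson p and of its q, and a score that repeats the −log10 p and was not used.

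Peaks on autosomes, X and Y were used, and were assigned to genes of GENCODE 44 (human) and M21 (mouse) by at least 1 bp of overlap with the gene body plus 1 kb on either side. All protein-coding genes gave the background. The summit pileup, a whole number, and its background were solved from fold and Poisson p for nearly all peaks, and on simulated data for 2679 of 2679 peaks. Planted overlaps were found in 300 of 300 cases. The lowest background of a list served as its scale. It depends on the fragment length, for which the shortest peak was taken, so depths are relative. Pileup intervals are Poisson, ratio intervals Clopper-Pearson and shares Wilson, all at 95%. Removal of duplicate reads is not given in the sources used here. Distances are from the nearest annotated TSS of the gene, unless the gene start is named. Reference transcripts for promoter sequence were MANE Select in human and the APPRIS principal transcript in mouse. The mouse genome matched the RefSeq promoter table for 7 of 7 of the genes it holds. Scripts used statsmodels 0.14.6, scipy 1.17.1, pandas 2.3.3 and numpy 2.4.6 under Python 3.11.15.

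All 10 genes were named with every peak. Of the 47 other genes of the wider list at most 3 per list of peaks were named, those with the highest −log10 p. Genes like JUN were the 3 closest in log2 fold among those with the same lists. The genes and lists were chosen with earlier results of these data known.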

Additional observations from a re-analysis of the deposited data

Results flagged for a closer look

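Fosb was the gene whose peaks moved one way from WT to KO and the other way from shControl to shDdx5. Peaks over it differed by 1 in KO minus WT (1 and 0) and by -1 in shDdx5 minus shControl (0 and 1). With 1 library a group the difference between these contrasts was not tested. The KO and shControl peaks did not overlap, had folds of 2.99 and 2.56 and did not reach a q of 0.05, so both were among the weakest of the set.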

How the results depend on the processing

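No paired analysis was possible because each group held 1 library, and for the same reason no replicate could be left out. Of 159 values recomputed under an alternative, 135 stayed within 1.5 times the reported count or within its interval. A fold of at least 4 removed peaks from 5 of the 9 counts by more than this: 1 gene with 1 peak remained in the WT count, 2 with 2 in KO, 3 with 3 in shControl, 4 with 4 in shDdx5 and 3 with 3 in RNH1, and shared S9.6 and RNH1 peaks fell to 2 in each direction. At a q of 0.05 or lower, shControl peaks numbered 5. With 5 kb flanks, FLAG-MCM8 had peaks at 6 genes (6 peaks). Without flanks, S9.6 and RNH1 had 4 peaks each. The share of all genes at the same fold, q or flank was not set beside these counts. Whether they moved off their background thus cannot be read from them. Where peaks had to share 50% of both lengths, 1 FLAG-MCM8 peak was shared with S9.6 and 1 S9.6 peak with FLAG-MCM8. For the other early genes, the share over background became 1.13 in KO and 1.53 in shDdx5 with a fold of at least 4, and 2.08 in shControl, 2.44 in shDdx5 and 1.304 in IgG against genes no longer than the longest of the set. The IgG value crossed from below to above the background. Depth limits the pileup ratios: with 11 to 57 fragments at the summits compared, no interval of a ratio excluded 1. Without division by the lowest background, the median log2 ratio of the set went from 0.294 to 0.0704 for KO over WT. For shDdx5 over shControl it went from 0.2625 to 0.4727. For RNH1 over S9.6 it changed sign, from -0.0683 to 0.0525.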

Other observations

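Several peaks stood a few kb beyond the 1 kb window, and those given here are examples. FLAG-MCM8 had peaks 3.60 kb from FOSL1 (fold 4.07), 3.91 kb from JUNB (fold 3.92) and 4.64 kb from JUND (fold 4.27). Around JUNB, S9.6 had a peak at 6.49 kb (fold 4.85), RNH1 at 5.88 kb (fold 3.69) and IgG at 5.78 kb (fold 3.74). In MEFs Fosl1 had a peak 2.41 kb away in KO (fold 3.09) and 2.27 kb away in shControl (fold 3.40), beside none nearer than 32.6 kb in WT. Mouse Junb had a peak 4.88 kb away in shControl (fold 3.36) and 6.56 kb away with no antibody (fold 3.26). Human FOSB had an RNH1 peak 2.57 kb from the gene (fold 3.26).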
